A study of Mus musculus with 2 samples.

Results

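The cells described here are the CD8 alpha-beta T cells of the inflamed colonic lamina propria (LP), chosen barcode by barcode from their own counts. A barcode was kept with at least 1000 UMIs (unique molecular identifiers, each standing for 1 captured mRNA molecule), at least 500 genes and less than 5% mitochondrial UMIs. It was a member when it held at least 1 UMI of Cd8b1, the beta chain of the CD8 coreceptor, at least 2 UMIs of the CD3 chains Cd3e, Cd3d and Cd3g summed, and none of Foxp3 (regulatory T cells), Trdc (γδ T cells), Cd79a (B cells) or Csf1r (macrophages). By this rule 595 of 13923 kept cells were CD8 T cells, 325 of 6005 in WT and 270 of 7918 in Ring1aKO. The rule used the measured values of these genes, so their levels are part of the choice and not a result.

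The study compared mice lacking Ring1a, an E3 ligase subunit of Polycomb repressive complex 1 encoded by Ring1, with WT mice in a model of colitis. Both groups were C57BL/6 mice aged 8 to 10 weeks, and both were given dextran sulfate sodium (DSS), a polysaccharide that injures the colonic epithelium, at 2.5% in drinking water for 7 to 8 days. Colonic LP cells sorted as CD45+ and 7-AAD-, that is, living leukocytes, from 5 pooled mice per genotype went into 1 10x Genomics 3′ library per genotype. The deletion was present in every cell of the mouse, so it was not restricted to T cells. With 1 library per genotype there was no replicate and no test: intervals below are 95% intervals that cover counting error only, and genotype, pool and library cannot be told apart.

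CD8 T cells recognise peptides on MHC class I and kill infected or damaged cells by releasing granzymes and perforin from granules, and they secrete chemokines and interferon-gamma. In the gut, some settle as tissue-resident memory cells, which hold on to the epithelium through integrins such as CD103 (Itgae, the alphaE chain, which pairs with beta7 and binds E-cadherin) and CD49a (Itga1, which binds collagen) and express little of the egress receptor S1pr1. Others keep the features of circulating effector and memory cells, among them the surface protein Ly6C2, which marks antigen-experienced CD8 T cells, and the T-box factor Eomes. The intestine also holds innate-like CD8 T cells that share receptors and signalling adaptors with NK cells.

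The libraries held 74414511 UMIs in WT and 81862096 in Ring1aKO over 32228 genes. The members held 2321662 and 1744082 of these, with a median of 5757 UMIs per cell in WT and 5723 in Ring1aKO, where the median over all kept cells was 6354 and 5035. Member depth thus lay close together in the libraries while that of the kept cells did not. Levels are given as CPM, the UMIs of a gene summed over a class of cells and scaled by all UMIs of that class (counts per 1e6), and a log2 ratio compares 2 such sums after 1 UMI was added to each. Ring1 itself was found as 29 and 24 UMIs in the members of WT and Ring1aKO, or 12.5 and 13.8 CPM, with a log2 ratio of 0.13 (-0.70 to 0.97). The counts therefore did not separate the genotypes at this gene. UMIs near the end of a transcript would be counted whether or not the coding part is intact, so this checks neither label. Rnf2, the paralogous ligase subunit, was at 40.1 and 36.7 CPM.

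The threshold values of the rule fell as follows. Just inside, 82 WT and 101 Ring1aKO members held a single Cd8b1 UMI, and 7 and 5 held 2 CD3 UMIs. Just outside, 2 cells in each library had a Cd8b1 UMI with a single CD3 UMI, 13 and 10 had none, and 69 and 102 met both conditions but held a UMI of an excluded gene. A Cd8b1 UMI was found in 8 of 1626 WT B cells (0.492%) and in 14 of 3844 Ring1aKO B cells (0.364%) gated in the same way, and in 25 of 586 (4.27%) and 17 of 456 (3.73%) cells with Cd4 and CD3 UMIs. It was found in 0 of 107 and 0 of 83 cells with an Ncr1 UMI and no CD3 UMI, which allows shares of up to 3.39% and 4.35% by the exact interval. The T cell receptor alpha constant gene Trac, which the rule did not use, had a UMI in 290 of 325 (89.2%) and 246 of 270 (91.1%) members. Cd4 UMIs were present in 19 and 9 members.

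The label of cytotoxic CD8 T cells was checked with markers the rule left free. Cd8a, the alpha chain of the coreceptor, was found in 281 WT and 243 Ring1aKO members. The chemokine Ccl5 stood at 10732 and 16849 CPM in the members and at 723 and 872 CPM in conventional CD4 T cells, which were cells with Cd4 and CD3 UMIs and no UMI of Cd8a, Cd8b1 or the excluded genes. Nkg7, a granule membrane protein, stood at 1085 and 1489.6 CPM against 159.8 and 230.02, and the granzyme Gzmk at 168 and 264 CPM against 31.9 and 64.2. These markers are shared with related classes, namely Cd8a-only T cells (Cd8a and CD3 UMIs, none of Cd8b1 or Cd4), γδ T cells (Trdc and CD3 UMIs, no Cd8b1) and NK cells and ILC1 (Ncr1 without CD3). Ccl5 stood at 6286 and 8724 CPM in Cd8a-only T cells, 5136 and 8833 CPM in γδ T cells and 2983 and 1884 CPM in NK cells and ILC1, and Nkg7 at 806 and 997, 618 and 858 and 1284 and 1036 CPM in the same order. Gzmk stood at 40.1 and 56.8, 3.67 and 15.6 and 0 and 4.20 CPM. Ccl5 and Gzmk were thus highest in the members, while the Nkg7 level of WT members did not exceed that of WT NK cells and ILC1.

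Cells were thinned to 2000 UMIs each to compare shares of positive cells, which left out 1 WT and 4 Ring1aKO members. Ccl5 was then found in 72.4% of WT and 82.6% of Ring1aKO members (75.4% and 84.8% before thinning), against 4.40% and 6.38% of B cells, which should lack it. Nkg7 was found in 70.9% and 82.5% (84.3% and 91.5% before thinning), against 0.518% and 0.995% of B cells. Gzmk was found in 25.7% and 31.8% (45.2% and 52.6% before thinning), against 0.0365% and 0.0536% of B cells. B cells had median depths of 5280.5 and 4483.5 UMIs. Gzmk was thus present in a minority of thinned members in both libraries.

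RNA of other cell types was present in the members. Of 10 plasma cell markers all were detected, with a summed level of 6391 CPM in WT and 5463 in Ring1aKO, led by Igkc. Of 10 NK and ILC1 markers 8 were detected in each library, at 2378 and 2783 CPM, led by Gzma, which CD8 T cells also make, with 0 and 3 UMIs of the defining receptor Ncr1 and 0 and 0 of Klra4. Of 10 γδ T cell markers 7 and 8 were detected, at 270.1 and 246.5 CPM, led by Trgc2, and Sox13 had none, while Trdc was set to none by the rule. A UMI of the γ chain constant genes Trgc1, Trgc2 or Trgc4 was found in 105 and 131 members. Those genes are also transcribed in αβ T cells, and whether some of these members were γδ T cells without a Trdc UMI was not tested. CD4 T cell markers summed to 936 and 811 CPM with 9 of 10 detected, led by Ctla4, and without Foxp3 by the rule. ILC2 and ILC3 markers summed to 248 CPM in WT, with 10 of 10 detected and led by Areg, and to 87.2 CPM in Ring1aKO, with 9 of 10 detected and led by Gata3. In Ring1aKO Il5 was at 0.

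Markers of myeloid and other cells were found as well. Monocyte and macrophage markers summed to 427 and 383 CPM, with 8 and 7 of 10 detected, but most of this was Ly6c2, and without Csf1r by the rule. The lysozyme gene Lyz2 stood at 49.5 and 9.75 CPM and had a UMI in 72 WT and 16 Ring1aKO members. Neutrophil markers summed to 159 and 96.9 CPM, led by S100a9, with 9 of 10 detected in each. B cell markers summed to 214 and 252 CPM, led by Cd74, and 9 of 10 were detected in each. Dendritic cell markers summed to 249 and 303 CPM, led by Ccr7, with 7 of 10 detected, and Xcr1 and Siglech at 0. Epithelial markers summed to 38.3 and 37.3 CPM, led by Cdh1, with Krt20 and Muc2 at 0 in both. Stromal, endothelial and erythroid markers summed to 97.8 and 40.1 CPM, led by Pecam1, with Cdh5 and Acta2 at 0 in both. Ribosomal protein genes took 30.6% and 32.7%, mitochondrial genes 2.18% and 2.34%, and Malat1 1.94% and 1.55% of member UMIs. The part of these differences in the ratios below was not tested, apart from the leave-out values given beside some of them.

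CD8 T cells were a smaller share of the kept cells in Ring1aKO, and nearly the same share of T cells. They made up 5.41% (4.85 to 6.01) of kept cells in WT and 3.41% (3.02 to 3.83) in Ring1aKO, a log2 ratio of -0.67 (-0.89 to -0.44). Of all CD3+ cells they made up 20.2% and 17.8%, a log2 ratio of -0.19 (-0.39 to 0.02). Gated B cells were 26.9% of kept cells in WT and 48.4% in Ring1aKO. With these left out, the log2 ratio of the CD8 share was -0.17 (-0.39 to 0.06). When at least 2 Cd8b1 UMIs were required, the log2 ratio was -0.92 over kept cells and -0.44 over CD3+ cells, since fewer Ring1aKO members held 2. A share says nothing of the number of CD8 T cells per colon.

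Within the CD8 T cells, 111 WT and 97 Ring1aKO members held a UMI of Itgae or Itga1 and none of Ly6c2 or Eomes, here called Itgae/Itga1-only. They were 34.2% and 35.9% of members, a log2 ratio of 0.07 (-0.24 to 0.39). The reverse, Ly6c2/Eomes-only, held 99 and 62 members, which were 30.5% and 22.96%, a log2 ratio of -0.41 (-0.80 to -0.01). The other members held UMIs of both pairs (65 and 62) or of neither (50 and 49). Median UMIs were 5271 and 4777 in Itgae/Itga1-only cells and 6366 and 5997.5 in Ly6c2/Eomes-only cells, and a shallower cell is less likely to show a gene. After thinning to 2000 UMIs the expected Itgae/Itga1-only shares were 29.1% and 31.1%, and the Ly6c2/Eomes-only shares 27.2% and 24.5%, with a log2 ratio of -0.16 (-0.55 to 0.24) for the second. The smaller Ly6c2/Eomes-only share of Ring1aKO was therefore not resolved after thinning. Thinning also raised the share with neither pair from 15.4% and 18.1% to 36.8% and 37.1%, so fewer cells could be assigned. Whether depth had a part in the difference was not tested. Thinned Ly6c2 was found in 22.3% and 17.7% of members and in 22.7% and 9.68% of B cells. Before thinning these shares were 35.7% and 25.2% of members and 34.6% and 16.8% of B cells. In WT its share in members was thus not above that in B cells. The gate for B cells did not leave out plasma cells, whose markers summed to 384850 CPM there in WT and 287379 in Ring1aKO. Whether cells of that class express Ly6c2 themselves was not tested, so its share there is no measure of background.

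**Figure D1:**
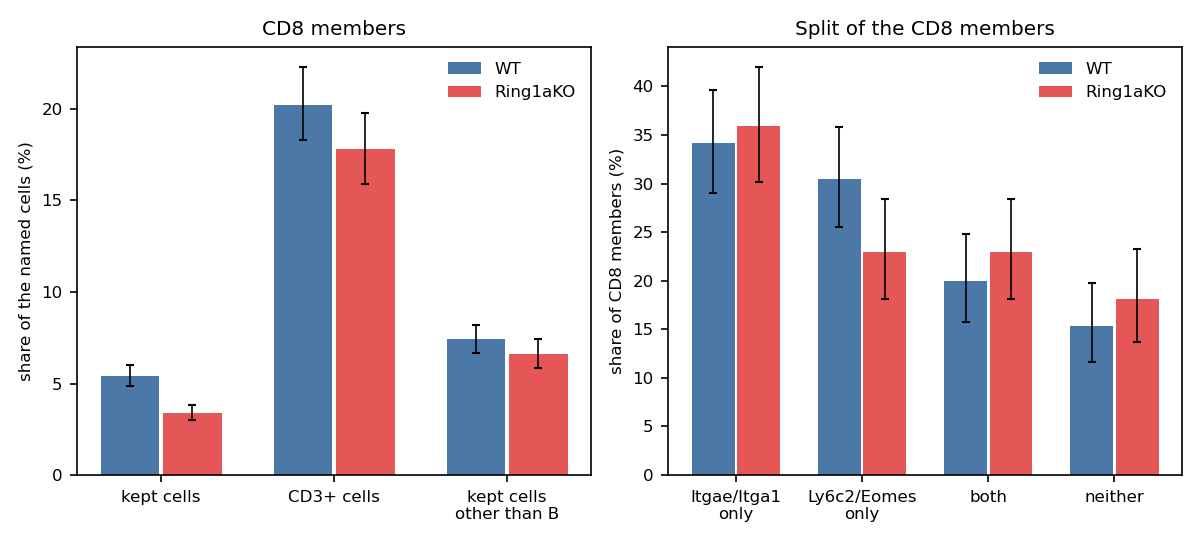
Left, CD8 T cells as a percentage of kept cells, of CD3+ cells and of kept cells other than B cells in WT and Ring1aKO; right, the 4 groups within the CD8 T cells as a percentage of members; error bars are 95% Clopper-Pearson intervals for 1 library each. The share of kept cells was lower in Ring1aKO (3.41% against 5.41%), while the Itgae/Itga1-only share was close in both (34.2% and 35.9%).

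Gene levels of all CD8 members were then compared between Ring1aKO and WT. The lower genes included the histone genes H1f5, H2ac8 and H1f4, and also Areg, Il1b, S100a4, Maf and S1pr1. The higher ones included Tesc, Gpr18, Lmna, Cd7 and, last of the 10 named, Ifng. Of 6569 genes with at least 50 UMIs over both sums, 32 were more than 2-fold higher (0.487%) and 239 more than 2-fold lower (3.64%) in Ring1aKO, together 271 (4.13%). The median log2 ratio over these genes was -0.12 and 2501 of them were above 0, so single ratios should be read against that value. TMM and median-of-ratios scaling shifted every ratio by 0.15 and 0.14, and gave 61 higher and 153 lower genes each, so 28.5% of the calls were higher there, against 11.8% by CPM. The 10 genes with the largest fall and the 10 with the largest rise among genes at 100 CPM or more in either library are described first, and none of their directions turned with the scaling.

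Among the 10 named falls, the 3 histone genes had the lowest ratios. H1f5, a linker histone made in S phase, stood at 171 and 6.88 CPM in WT and Ring1aKO members, a log2 ratio of -4.54 (-5.60 to -3.82), and its UMIs were in 37 and 5 cells. H2ac8, a core H2A histone, stood at 222 and 18.9 CPM, -3.52 (-4.11 to -3.05). H1f4, another linker histone, stood at 206 and 25.2 CPM, -3.01 (-3.51 to -2.58), with UMIs in 121 and 30 cells. The mRNAs of these genes mostly end without a poly(A) tail, so their counts in a 3′ library are uncertain. H2ac8 also has near-identical copies. Both linker histones were also lower in conventional CD4 T cells (-3.95 and -2.57), in Cd8a-only T cells (-3.73 and -2.43), in γδ T cells (-1.36 and -2.50), in NK cells and ILC1 (-1.81 and -1.81) and in gated B cells (-2.66 and -2.46), so they were lower in each of these classes. H1f4 was also lower among barcodes with fewer than 100 UMIs, which hold cell-free RNA, at 60.0 and 27.6 CPM. The 5 highest cells held 54.02% of the WT H1f5 UMIs and 57.8% of those of H2ac8. Without the 5 highest cells of each library no H1f5 UMI was left in Ring1aKO members, since only 5 held one, and H2ac8 was at -3.92. The ratios of H1f5 and H2ac8 were -2.16 and -1.98 without members holding a Mki67 or Top2a UMI, and H2ac8 was at -0.92 without doublet-like members. H1f4 was at -1.78 without doublet-like members and at -1.84 without members holding a Trgc, Fcer1g or Tyrobp UMI. Doublet-like members held at least 2 UMIs summed over Cd79b, Ms4a1, Lyz2, C1qa, C1qb, S100a8, S100a9, Epcam and Cd74, or were among the deepest 5%. Leaving them out kept 195 of 325 WT and 143 of 270 Ring1aKO members, and whether they were doublets was not tested.

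The promoters of the linker histones are shown because these 2 genes were lower together in each of the classes named above. Each spans 300 bases of which the last 50 follow the start site, 5′ to 3′ on the gene's strand, from RefSeq on GRCm38.p6. Capitals mark the TATA box letters TATAAA, the CCAAT box letters and the T-box letters AGGTGT, each searched on both strands, so that a match on the other strand reads as its reverse complement. H1f5 lies at chr13:21780576-21780875 on the minus strand and H1f4 at chr13:23622509-23622808 on the minus strand.

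H1f5 promoter: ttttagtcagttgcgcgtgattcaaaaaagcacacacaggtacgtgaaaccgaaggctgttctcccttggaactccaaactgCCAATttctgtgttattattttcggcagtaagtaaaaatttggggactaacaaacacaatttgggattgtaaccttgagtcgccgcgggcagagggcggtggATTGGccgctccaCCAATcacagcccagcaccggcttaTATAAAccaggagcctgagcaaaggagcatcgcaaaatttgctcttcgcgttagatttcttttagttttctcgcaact

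H1f4 promoter: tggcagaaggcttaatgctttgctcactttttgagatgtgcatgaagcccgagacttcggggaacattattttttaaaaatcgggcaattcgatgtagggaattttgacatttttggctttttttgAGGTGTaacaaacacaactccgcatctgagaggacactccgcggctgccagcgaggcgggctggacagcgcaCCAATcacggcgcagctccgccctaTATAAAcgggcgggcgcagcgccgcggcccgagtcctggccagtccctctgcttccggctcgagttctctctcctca

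TATAAA lay at -28 to -23 from the start site in H1f5 and at -27 to -22 in H1f4, and a CCAAT match lay upstream of it at -53 to -49 in H1f5 and -52 to -48 in H1f4. H1f5 held CCAAT also at -168 to -164 and, on the other strand, at -66 to -62, and H1f4 held AGGTGT at -124 to -119. Of 32851 RefSeq promoters of this length, 37.41% held CCAAT, 13.62% held TATAAA and 5.312% held both. The matches are a description of the letters and show no binding.

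Among secreted factors, Areg, an EGF receptor ligand tied to epithelial repair, stood at 103 and 17.8 CPM, -2.50 (-3.12 to -1.98). It was made by few cells, since 5 cells held 87.8% of its WT UMIs and 74.2% of its Ring1aKO UMIs, and its ratio was 0.59 when at least 2 Cd8b1 UMIs were required and 0.31 without members holding a Cd4 UMI. Areg in members with a single Cd8b1 UMI was 412 CPM in WT and 12.3 in Ring1aKO, and in those with at least 2 it was 13.3 and 20.5 CPM. The direction of Areg therefore rested on WT cells at the edge of the rule. Il1b, the inflammatory cytokine made mainly by myeloid cells, stood at 175 and 33.3 CPM, -2.38 (-2.82 to -1.999), beside 2639.8 and 1281 CPM in cell-free barcodes, and at -1.28 without members holding a Trgc, Fcer1g or Tyrobp UMI. With cell-free RNA subtracted, its sum in Ring1aKO members was at 0 when rounded to whole UMIs, so no ratio is given. Tnfsf8, the CD30 ligand, stood at 118 and 36.1 CPM, -1.70 (-2.13 to -1.31), in 43 and 14 cells, and at -0.92 without the members holding a Trgc, Fcer1g or Tyrobp UMI. Il17a, a cytokine of Tc17, Th17 and γδ T cells named here from the cytokine list, was found as 206 and 1 UMIs in 20 and 1 cells. Its log2 ratio was -6.39, with 87.4% of the WT UMIs in 5 cells.

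The S1pr1 group comprised genes of broader expression. S1pr1, the sphingosine phosphate receptor that guides T cells out of tissue, stood at 109 and 35.0 CPM, -1.63 (-2.07 to -1.24), and was found in 108 and 38 members. Its ratio was -0.73 in conventional CD4 T cells and -0.91 in γδ T cells, but 0.66 in gated B cells. It was -1.04 without members holding a Trgc, Fcer1g or Tyrobp UMI. S100a4, a calcium-binding protein of motile and memory T cells, stood at 589 and 120.4 CPM, -2.29 (-2.51 to -2.08), in 113 and 38 cells, beside 592 and 227 CPM in cell-free barcodes, and was at -0.68 in conventional CD4 T cells. Maf, a transcription factor of cytokine programmes including Il10, stood at 142 and 40.1 CPM, -1.81 (-2.22 to -1.45), against -0.39 in conventional CD4 T cells and 0.82 in B cells. Paxbp1, which encodes a PAX-binding protein, stood at 107 and 28.7 CPM, -1.88 (-2.37 to -1.45), and was lower in all 4 groups of members (-1.80 and -2.04 in Itgae/Itga1-only and Ly6c2/Eomes-only cells). Paxbp1 was lower in the other T cell classes too, at -1.42 in conventional CD4 T cells and -1.38 in γδ T cells. Over 18 alternatives Paxbp1 ranged from -2.01 to -1.67, S100a4 from -3.38 to -1.41 and Maf from -2.38 to -1.25.

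Of the 10 named rises Tesc and Gpr18 passed 2-fold by CPM, while 8 did with TMM or median-of-ratios scaling, all but Ifng and Tuba4a. Tesc, the calcium-binding protein tescalcin, stood at 56.0 and 126 CPM, 1.16 (0.85 to 1.49), in 75 and 125 cells. Gpr18, a G protein-coupled receptor of intestinal CD8 T cells, stood at 67.6 and 146 CPM, 1.11 (0.82 to 1.41), in 106 and 125 cells, and at 0.75 without members holding a Trgc, Fcer1g or Tyrobp UMI. More cells of the smaller Ring1aKO set were thus positive for each. Cd7, an immunoglobulin-family receptor of T and NK cells, stood at 320.5 and 628 CPM, 0.97 (0.83 to 1.11), and was found in 29.6% and 51.4% of thinned members (48.9% and 72.2% before thinning) against 0.382% and 0.776% of B cells. In conventional CD4 T cells Cd7 was at 0.10. Cd7 ranged from 0.92 to 1.59 and Tesc from 1.10 to 1.68 over the alternatives.

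The other 7 rises stayed below 2-fold by CPM. Ifng, the interferon that activates macrophages and MHC expression, stood at 249 and 442 CPM, 0.83 (0.67 to 0.99), in 139 and 111 cells, but 5 cells held 34.2% of its Ring1aKO UMIs and it was at 0.49 without the 5 highest cells of each library. In the other classes Ifng was lower in Ring1aKO, at -1.22 (246 and 105 CPM) in conventional CD4 T cells, -0.999 in γδ T cells and -1.69 (999.8 and 309 CPM) in NK cells and ILC1, and only in Cd8a-only T cells did it lie above 0 (0.23). The difference between classes was not tested. Irf4, a factor induced by T cell receptor signals, stood at 62.9 and 117 CPM, 0.89 (0.58 to 1.21), against -0.20 in conventional CD4 T cells. Socs1, an inhibitor of JAK signalling, stood at 81.0 and 151 CPM, 0.89 (0.62 to 1.17) (0.53 without doublet-like members), and at 1.35 in conventional CD4 T cells. Gadd45b, a stress-induced activator of p38 signalling, stood at 331 and 606 CPM, 0.87 (0.74 to 1.009). Lmna, which encodes lamin A, stood at 103 and 204 CPM, 0.98 (0.74 to 1.23), and at 0.58 without members holding a Trgc, Fcer1g or Tyrobp UMI. Ier5l and the tubulin Tuba4a had log2 ratios of 0.92 and 0.84, and of 0.32 (-0.10 to 0.75) and 0.54 when the same members were left out.

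**Figure D2:**
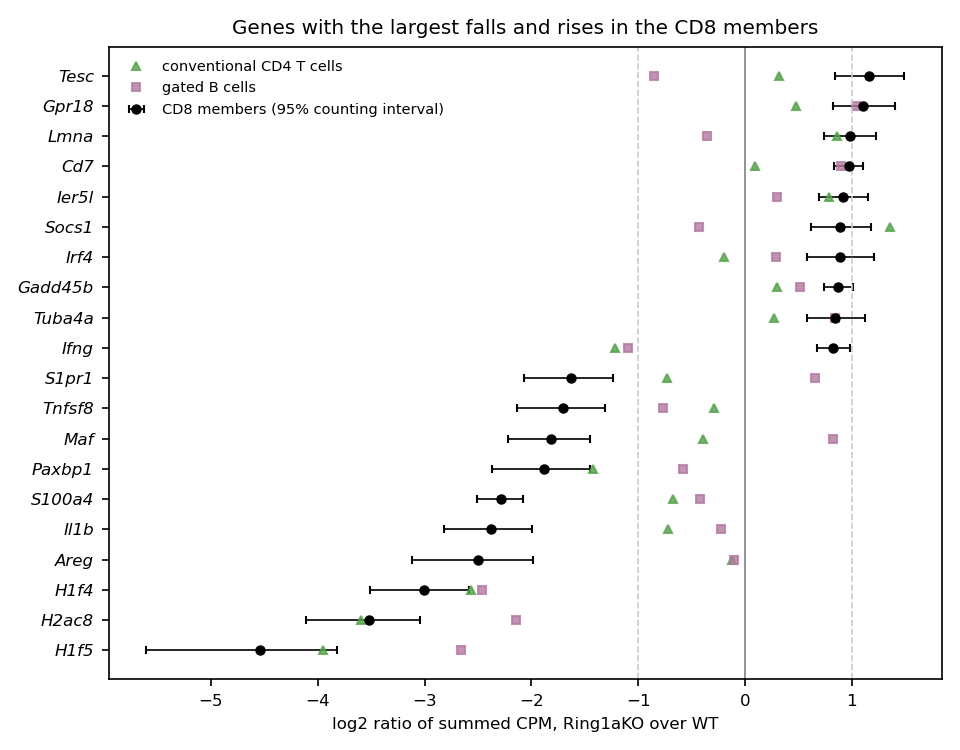
Log2 ratio of Ring1aKO over WT for the 20 named genes in CD8 T cells (points with 95% counting intervals), with the same ratio in conventional CD4 T cells (triangles) and gated B cells (squares), 1 library per genotype. The named histone genes were low in all 3 classes, whereas Ifng was higher in CD8 T cells (0.83) and lower in CD4 T cells (-1.22) and B cells (-1.09).

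Gene lists were read beside all 6569 genes, of which 2501 were above 0, 0.487% more than 2-fold higher and 3.64% more than 2-fold lower, with a median of -0.12. Of 17 cytotoxic genes tested 14 were above 0, with a median of 0.35, and 1, Gzmm, was more than 2-fold higher (8.61 and 24.1 CPM, 1.43, interval 0.68 to 2.33). Gzmb, the protease that starts apoptosis in target cells, stood at 947 and 1392 CPM, 0.56 (0.47 to 0.64). Gzma stood at 2071 and 2481 CPM, 0.26 (0.20 to 0.32), and Gzmk at 168 and 264 CPM, 0.65 (0.45 to 0.85). Nkg7 was at 0.46 (0.38 to 0.54), Ctsw, a cathepsin of cytotoxic cells, at 0.44, the granule proteoglycan Srgn at 0.35, and Serpinb9, which protects the cell from its own Gzmb, at 0.45. Perforin, Prf1, was not higher, at 46.5 and 41.3 CPM, -0.17 (-0.62 to 0.27). The median of this list was 0.14 in conventional CD4 T cells, 0.31 in Cd8a-only T cells, 0.43 in γδ T cells, 0.20 in B cells and -0.19 in NK cells and ILC1, so it was above 0 also in cells that express little of it.

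Of 14 cytokine and chemokine genes 10 were above 0, none more than 2-fold (0.487% of all genes), and 3 were more than 2-fold lower (3.64% of all genes), with a median of 0.31. The chemokines Ccl5 and Ccl4 stood at 10732 and 16849 CPM, 0.65 (0.63 to 0.68), and 792 and 1266 CPM, 0.68 (0.59 to 0.77), and the XCR1 ligand Xcl1 at 306 and 229 CPM, -0.42 (-0.60 to -0.24). Ccl5 was also higher in γδ T cells (0.78) and Cd8a-only T cells (0.47), and lower in NK cells and ILC1 (-0.66). Il22 was at 96 and 18 UMIs, -1.95. Of 23 cytokine receptor genes 15 were above 0, with a median of 0.13, and the subunits of the IL-18 receptor were the lowest, with Il18r1 at 90.0 and 31.0 CPM, -1.52 (-1.999 to -1.10), and Il18rap at 68.9 and 33.3 CPM, -1.04 (-1.51 to -0.61).

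Of 34 interferon response genes tested, against 2501 of 6569 over all genes, only Ifi47, Igtp and Gbp3 were above 0, at 0.68, 0.29 and 0.34, and the median was -0.53. The 3 genes more than 2-fold lower, beside 3.64% of all genes, were Ifi208 (45 and 5 UMIs, -2.56), Stat2 (33.2 and 13.8 CPM, -1.24, interval -1.995 to -0.59) and the ubiquitin ligase Rnf213 (102 and 49.3 CPM, -1.04, interval -1.42 to -0.69). Ifi27l2a stood at 698 and 357 CPM, -0.97 (-1.10 to -0.83). The median was below that of all genes in each other class too, at -0.66 in conventional CD4 T cells, -0.49 in Cd8a-only T cells, -0.58 in γδ T cells, -0.39 in NK cells and ILC1 and -0.93 in B cells. Over the 17 alternatives it lay between -0.62 and -0.39 in the members. MHC class I genes had a median of 0.06, with 11 of 17 above 0 and none past 2-fold, while Ifng itself was higher in Ring1aKO members.

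Genes of egress and circulation had a median of -0.27, with 5 of 19 above 0 and 5 more than 2-fold lower, where of all 6569 genes 2501 were above 0 and 3.64% more than 2-fold lower. Besides S1pr1 and S100a4 these included the integrin beta1 chain Itgb1 (147 and 56.8 CPM, -1.36, interval -1.71 to -1.04) and S100a6 (876 and 427 CPM, -1.04, interval -1.16 to -0.92). Klf2, a factor that drives S1pr1 transcription, stood at 435 and 361 CPM, -0.27 (-0.42 to -0.12). The chemokine receptor Cx3cr1, below the floor, was found as 11 and 0 UMIs. Residence genes, by contrast, had a median of -0.04, with 13 of 30 above 0 and none past 2-fold. Itgae stood at 171 and 165 CPM (-0.05), Itga1 at 107 and 119 CPM (0.16) and Cd69, which retains cells by binding S1pr1 protein, at 523 and 644 CPM (0.30). The ratio of Itgae and the median of the residence list turned above 0 with TMM and median-of-ratios scaling, which added 0.15 and 0.14.

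The remaining lists are read beside the median of -0.12 over all 6569 genes. Of these, 2501 were above 0, 0.487% were more than 2-fold higher and 3.64% more than 2-fold lower. Naive and memory genes had a median of -0.18 with 6 of 17 above 0, Igfbp4 as 1 gene past 2-fold upward (1.16) and 2 past it downward, Dapl1 (-1.15) among them. Transcription factors had a median of -0.27 with 9 of 25 above 0, Id2 at 0.55 and Zeb2 at 0.58 among the higher, and Runx3 at -0.51 and Tox at -0.97 among the lower. Of the checkpoint genes 5 of 11 were above 0, with a median of -0.05, and the 2 past 2-fold downward were Entpd1 (-1.27) and Nt5e (67.6 and 28.7 CPM, -1.22), which encode the ectoenzymes CD39 and CD73 that make adenosine from ATP. NK receptors had 6 of 10 above 0, a median of 0.21 and Klre1 past 2-fold upward (1.09). Homing receptors had 7 of 15 above 0 and a median of -0.00, with S1pr1 and Itgb1 past 2-fold downward, and Ccr4, below the floor, was found as 29 and 0 UMIs. Genes of the T cell receptor complex and its signalling had 15 of 20 above 0, none past 2-fold and a median of 0.14. Glycolysis and metabolism genes had 11 of 19 above 0 and a median of 0.08, with the lipid chaperone Fabp5 at 1.13 and Cpt1a, which brings fatty acids into mitochondria, at -1.014. Polycomb genes had 7 of 17 above 0, none past 2-fold and a median of -0.12, beside -0.12 over all genes. The medians of the checkpoint, homing and polycomb lists turned above 0 when the scaling shift was added.

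The cell cycle and immediate-early lists had 4 of 26 and 1 of 33 genes past 2-fold. Of 26 cell cycle genes 2 were above 0 (2501 of 6569 over all genes) and 4 were more than 2-fold lower (3.64% over all genes), with a median of -0.42, and Mki67, a marker of cycling cells, stood at 132 and 47.0 CPM, -1.48 (-1.86 to -1.14), in 44 WT and 24 Ring1aKO members. The DNA topoisomerase Top2a stood at 137 and 67.1 CPM, -1.03 (-1.35 to -0.72). The median was 0.089 when each cell counted equally, so its sign depended on the weight given to single cells. It was 0.19 without members holding a Mki67 or Top2a UMI. Both genes are on the list, so leaving out cells that hold them cannot show what the sign rests on. Of 33 immediate-early and stress genes 23 were above 0, with a median of 0.19 and Egr2 past 2-fold upward (1.15; 0.487% over all genes), and the list took 2.23% and 2.55% of member UMIs. With the members holding a Trgc, Fcer1g or Tyrobp UMI left out, its median was -0.0089. These genes respond to tissue digestion as well as to antigen, and that part was not tested.

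**Figure D3:**
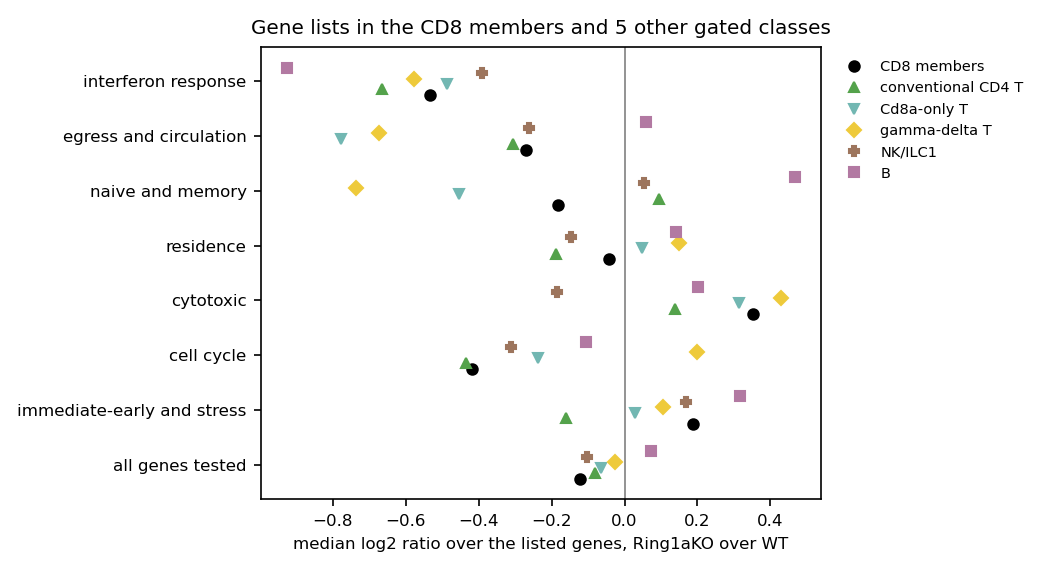
Median log2 ratio of Ring1aKO over WT of 7 gene lists and of all genes tested, in CD8 T cells and 5 other cell classes, 1 library per genotype. The interferon list lay below the median of all genes in each of the 6 classes, from -0.93 in B cells to -0.39 in NK cells and ILC1, and the cytotoxic list was at 0.35 in CD8 T cells.

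The second comparison set Itgae/Itga1-only against Ly6c2/Eomes-only CD8 T cells inside each library. The Itgae/Itga1-only cells held more Gzma, Trgc2, Gpr55, Actn2 and Ptger4, and the Ly6c2/Eomes-only cells more Myb, Klrk1, Ctla2a and Cxcr4. Of 5031 genes with at least 50 UMIs over the 4 sums, 221 (4.39%) were more than 2-fold higher and 134 (2.66%) more than 2-fold lower in Itgae/Itga1-only cells of WT. In Ring1aKO, with fewer cells, these were 375 (7.45%) and 192 (3.82%). Past 2-fold the same way in both libraries were 94 genes higher (1.87%) and 47 lower (0.934%), together 141 (2.8%), and 11 (0.219%) were past it in opposite directions. Without doublet-like members these were 84 of 3082 genes tested, beside 141 of 5031. Without members holding a Trgc, Fcer1g or Tyrobp UMI they were 51 of 2801. Fewer cells left fewer genes with at least 50 UMIs, so the counts stand beside unlike totals. The medians over all genes were 0.05 and 0.06. The cells were divided by 4 genes of their own profile, so these ratios describe the division and test nothing.

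**Figure D4:**
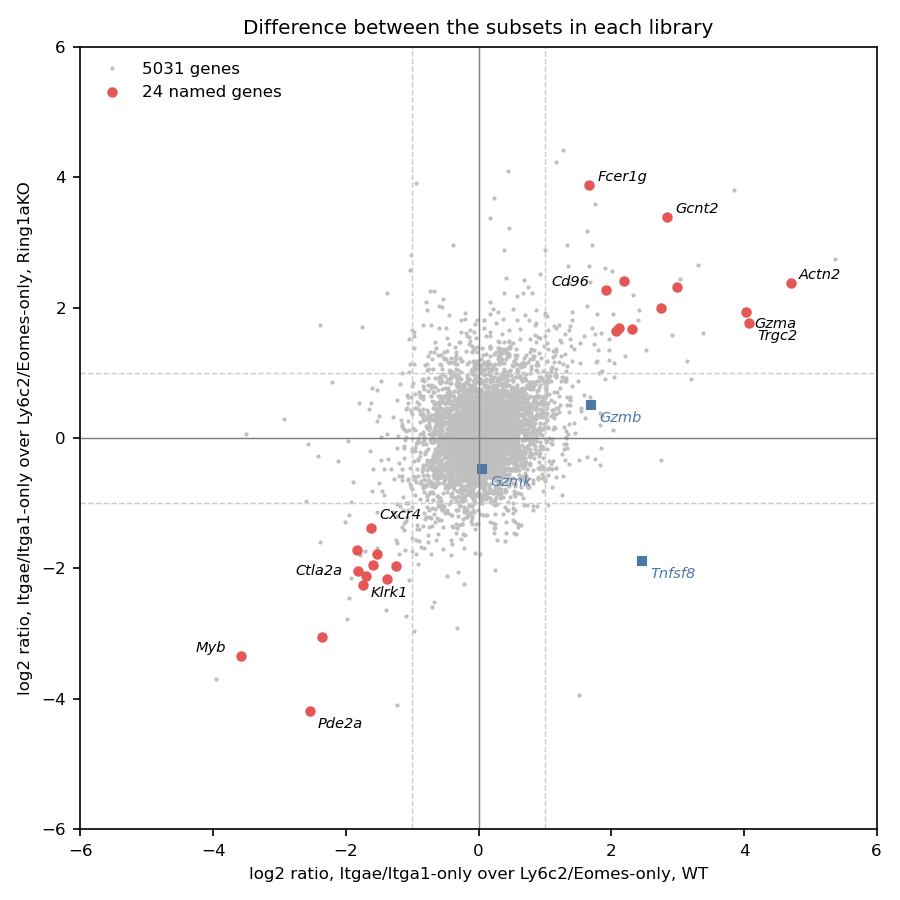
Log2 ratio of Itgae/Itga1-only over Ly6c2/Eomes-only CD8 T cells in WT (x axis) and Ring1aKO (y axis) for 5031 genes, 1 library each, with the 24 named genes in red and Gzmb, Gzmk and Tnfsf8 as blue squares. The named genes lie past 2-fold in the same direction in both libraries, with Gzma at 4.03 and 1.94, while Tnfsf8 lies in opposite corners at 2.46 and -1.89.

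The granzymes were not distributed alike over these cells. Gzma, a tryptase of cytotoxic granules, stood at 5026 and 307 CPM in Itgae/Itga1-only and Ly6c2/Eomes-only cells of WT, 4.03 (3.84 to 4.23), and at 4773 and 1244 CPM in Ring1aKO, 1.94 (1.80 to 2.08). Gzmb stood at 1543 and 477 CPM in WT, 1.69 (1.52 to 1.87), and at 1965 and 1387 CPM in Ring1aKO, 0.50 (0.35 to 0.65). Gzmk, its relative of effector memory cells, was not higher in Itgae/Itga1-only cells, at 206 and 199 CPM in WT, 0.05 (-0.29 to 0.40), and 230.3 and 321 CPM in Ring1aKO, -0.47 (-0.84 to -0.11). Gzma and Gzmk lie near each other on chromosome 13 and yet differed in their distribution over the groups. Without members holding a Trgc, Fcer1g or Tyrobp UMI, the Gzma ratio was 3.17 in WT and 0.26 in Ring1aKO, so in Ring1aKO it rested on those cells. They were 75 and 73 of the Itgae/Itga1-only members and 26 and 20 of the Ly6c2/Eomes-only members in WT and Ring1aKO. In WT it was 2.46 with groups formed after thinning to 2000 UMIs and 6.64 without members holding a Mki67 or Top2a UMI. Members with a Mki67 or Top2a UMI were 24 and 20 of the Itgae/Itga1-only and 32 and 15 of the Ly6c2/Eomes-only members.

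The Gzma and Gzmk promoters are shown as a neighbouring pair with unlike levels in the groups divided by Eomes, a T-box factor. They lie at chr13:113100932-113101231 and chr13:113180916-113181215, both on the minus strand of GRCm38.p6 (RefSeq), are written on the gene's strand, and capitals again mark the T-box, CCAAT box and TATA box letters on either strand.

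Gzma promoter: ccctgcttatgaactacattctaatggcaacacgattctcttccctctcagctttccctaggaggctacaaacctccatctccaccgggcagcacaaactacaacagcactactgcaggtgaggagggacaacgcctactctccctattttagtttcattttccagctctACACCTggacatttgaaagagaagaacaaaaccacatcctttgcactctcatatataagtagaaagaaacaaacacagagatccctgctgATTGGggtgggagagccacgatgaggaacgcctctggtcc

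Gzmk promoter: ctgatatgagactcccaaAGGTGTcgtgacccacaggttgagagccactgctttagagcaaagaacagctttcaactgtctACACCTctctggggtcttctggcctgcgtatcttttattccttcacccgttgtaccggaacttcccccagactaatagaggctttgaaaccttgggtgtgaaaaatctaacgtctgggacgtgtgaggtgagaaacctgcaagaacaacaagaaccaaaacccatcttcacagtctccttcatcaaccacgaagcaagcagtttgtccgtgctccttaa

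Gzma held AGGTGT on the other strand at -80 to -75 and CCAAT on the other strand at 10 to 14. Gzmk held AGGTGT at -232 to -227 and on the other strand at -169 to -164. Of the 32851 promoters, 13.74% held AGGTGT. A match of these letters is no site of Eomes, and both promoters hold it.

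The other named genes higher in Itgae/Itga1-only cells of both libraries included receptors, adaptors and enzymes. Trgc2, a γ chain constant gene, stood at 178 and 9.27 CPM in WT, 4.07 (3.18 to 5.61), and 230.3 and 66.2 CPM in Ring1aKO, 1.77 (1.18 to 2.47). With groups formed after thinning to 2000 UMIs, Trgc2 was at 2.94 in WT and 1.17 in Ring1aKO. Without doublet-like members it was at 1.06 (0.23 to 2.05) in Ring1aKO. Fcer1g, a signalling adaptor of NK and innate-like T cells, stood at 133 and 41.0 CPM in WT, 1.66, and at 104 and 5.09 CPM in Ring1aKO, 3.88 (2.43 to 7.43), the latter over 2 UMIs in the lower group. With at least 2 Cd8b1 UMIs required its ratios were -0.10 and -0.064, so the Fcer1g difference rested on members with a single Cd8b1 UMI. Their Fcer1g level was 152 CPM in WT and 107 in Ring1aKO, against 51.6 and 41.8 CPM in the members with more.

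Gpr55, a lysophospholipid receptor, stood at 147 and 17.2 CPM in WT, 2.99, and 136 and 25.4 CPM in Ring1aKO, 2.32. Ptger4, the prostaglandin E2 receptor EP4, stood at 159.99 and 35.8 CPM in WT, 2.12, and 104 and 30.5 CPM in Ring1aKO, 1.69. Cd96, which binds the nectin-family ligand CD155, stood at 154 and 39.7 CPM in WT, 1.92, and 143 and 28.0 CPM in Ring1aKO, 2.27. When the groups were formed after thinning to 2000 UMIs, Ptger4 was at 0.83 (0.17 to 1.57) in Ring1aKO. Actn2, an actin cross-linker, was at 4.70 and 2.37. In WT Actn2 was at 3.09 after thinning, and in Ring1aKO at 1.53 without doublet-like members and 3.70 with at least 2 Cd8b1 UMIs required. Dapk2, a death-associated kinase, was at 2.75 and 1.99 (in Ring1aKO 1.06, interval -0.58 to 3.07, when members holding a Trgc, Fcer1g or Tyrobp UMI were left out), and Furin, a protease that activates precursors such as TGF-beta, at 2.07 and 1.65. Gcnt2, a glycan-branching enzyme, was at 2.84 in WT and 3.39 (2.09 to 6.03) in Ring1aKO, where the lower group held 3 UMIs. The ubiquitin ligase Rnf149 was at 2.31 and 1.67 (0.79 in Ring1aKO after thinning), and 4930503L19Rik at 2.19 and 2.41.

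The 12 named genes that were higher in Ly6c2/Eomes-only cells were led by Myb. Myb, a factor of stem-like and memory CD8 T cells, stood at 7.48 and 105 CPM in Itgae/Itga1-only and Ly6c2/Eomes-only cells of WT, -3.58 (-5.47 to -2.52), and at 5.35 and 73.8 CPM in Ring1aKO, -3.35 (-6.14 to -2.09). Klrk1, the activating receptor NKG2D, stood at 25.4 and 88.7 CPM, -1.75, and 41.1 and 204 CPM, -2.25. Ctla2a, a cathepsin inhibitor, stood at 127 and 450.2 CPM, -1.81, and 237 and 985 CPM, -2.04. Cxcr4, the CXCL12 receptor, stood at 64.3 and 201 CPM, -1.63, and 82.1 and 216 CPM, -1.37, but at -0.99 and -0.09 without members holding a Trgc, Fcer1g or Tyrobp UMI. With those members left out, Myb was at -1.78 in WT and Ctla2a at -1.18 in Ring1aKO. When the groups were formed after thinning to 2000 UMIs, Myb was at -1.93 (-3.54 to -0.83) in Ring1aKO.

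Sh2d1a, the adaptor SAP of SLAM-family receptors, was at -1.83 in WT and -1.72 in Ring1aKO, and Lyst, which regulates lysosome traffic, at -1.70 and -2.12, the second being -0.62 (-2.56 to 1.09) without doublet-like members. Pde2a, a cyclic nucleotide phosphodiesterase, was at -2.55 in WT and -4.19 (-10.62 to -2.67) from a single UMI in Ring1aKO, and Pglyrp1, a peptidoglycan-binding granule protein, at -2.36 and -3.05, the first being -0.66 (-2.29 to 0.61) without members holding a Trgc, Fcer1g or Tyrobp UMI. Il18rap was at -1.53 and -1.78, while Il18r1, the other subunit of the IL-18 receptor, was at 0.12 and -0.48. Gramd3, Gxylt1 and Bend4 completed the set of 12, at -1.25, -1.38 and -1.59 in WT and -1.96, -2.16 and -1.95 in Ring1aKO. When members holding a Trgc, Fcer1g or Tyrobp UMI were left out, Gramd3 and Gxylt1 were at -0.83 and -0.77 in WT and no longer past 2-fold, and Lyst was at -0.99.

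Gene lists were then read between the groups, without the 4 dividing genes. Over all genes tested, 4.39% were more than 2-fold higher and 2.66% lower in Itgae/Itga1-only cells of WT, 7.45% and 3.82% in Ring1aKO, and 1.87% and 0.934% in both libraries, and the counts of every list below stand beside these shares. Of 26 residence genes tested, 10 were more than 2-fold higher and none lower in Itgae/Itga1-only cells of WT (median 0.70), 8 higher and none lower in Ring1aKO (median 0.72), and 7 higher in both. These 7 were Cxcr6, the receptor for CXCL16 (170.5 and 42.4 CPM in WT, 1.97, and 184 and 78.9 CPM in Ring1aKO, 1.20), the G protein regulator Rgs1 (1.80 and 1.34), the chemokine Xcl1 (1.12 and 1.24), the ATP receptor P2rx7 (1.86 and 1.03), the aryl hydrocarbon receptor Ahr (1.75 and 1.59), Litaf (1.30 and 1.60) and Abi3 (1.59 and 1.56). Cd69 did not pass 2-fold, at 0.46 and 0.37.

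Egress genes had medians of -0.70 in WT and -0.93 in Ring1aKO over 16 genes, with none higher past 2-fold and 4 and 7 lower, 3 of them in both. These included S100a6 (543 and 1129 CPM, -1.06, and 137 and 628 CPM, -2.18) and Sidt1, an RNA transporter of the lysosome (-1.72 and -1.74). S1pr1 was at -0.67 (-1.20 to -0.17) in WT and -2.52 (-4.52 to -1.36) in Ring1aKO, and Klf2 at -0.95 and -0.88. Naive and memory genes had medians of -0.90 and -0.89 over 16 genes, with 5 lower in both libraries, among them Dapl1, Actn1, Ms4a4b and Ms4a6b. Lef1 and Tcf7, factors of naive and memory T cells, were at -0.95 and -0.69 in WT and -1.57 and -0.84 in Ring1aKO, while Foxo1 lay on the other side at 0.93 and 1.23. The naive and memory median of Ring1aKO was -0.29 without members holding a Trgc, Fcer1g or Tyrobp UMI.

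Of 13 homing receptors tested, Cxcr6 and Ccr9, the receptor for the gut chemokine CCL25, were higher in Itgae/Itga1-only cells of both libraries (Ccr9 at 62.8 and 14.6 CPM, 2.01, and 85.7 and 12.7 CPM, 2.57), and Cxcr4 and Ccr2 lower. Ccr2, the receptor for inflammatory CCL2, stood at 31.4 and 75.5 CPM in WT, -1.23, and 8.92 and 186 CPM in Ring1aKO, -4.09 (-6.04 to -3.09). The list had 2 higher and 3 lower in WT and 2 higher and 6 lower in Ring1aKO, with medians of -0.53 and -0.75. Transcription factors had medians of 0.45 and -0.03 over 23 genes, with 5 higher and none lower in WT and 4 higher and 2 lower in Ring1aKO. The 4 higher in both were Ikzf2, which encodes Helios (1.64 and 3.18), Zeb2 (1.84 and 1.02), Hic1 (2.03 and 1.90) and Ahr. Tbx21, which encodes T-bet, was at 1.34 in WT and 0.06 in Ring1aKO.

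Cytotoxic genes had medians of 0.16 in WT, with 3 of 16 higher and none lower, and -0.38 in Ring1aKO, with 2 higher and 3 lower. Gzma and Tnfsf10, the death ligand TRAIL (1.05 and 1.66, interval 0.10 to 4.32), were higher in both. Prf1 lay the other way, at -0.77 and -1.49. Cytokine genes had medians of 0.63 and 0.40 over 10 genes, with 4 higher in WT and 3 in Ring1aKO and none lower, and Xcl1, the chemokine Ccl3 (1.82 and 1.00) and Fgl2 (1.74 and 1.45) were higher in both. Checkpoint genes had medians of 1.00 and 0.42 over 9 genes, with 4 higher and 2 lower in WT and 2 higher and 1 lower in Ring1aKO. Cd96 was higher in both and Lag3, which binds MHC class II, lower in both (-1.23 and -1.013), while Pdcd1, which encodes PD-1, was at -3.50 in WT and 0.07 in Ring1aKO. NK receptors had medians of 0.48 and 0.77 over 9 genes, with 3 higher and 1 lower in WT and 4 higher and 3 lower in Ring1aKO. Fcer1g, Cd7 (2.05 and 1.15) and Klra7, a Ly49 receptor with near-identical copies, were higher in both, and Klrk1 lower.

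Cytokine receptors had medians of 0.06 and 0.08 over 19 genes, with 2 higher and 2 lower in WT and 3 and 2 in Ring1aKO. Il12rb2, a chain of the IL-12 receptor, was higher in both (3.03 and 2.43), and Il18rap and Il10ra (-1.78 and -1.79) lower in both. Interferon genes had medians of -0.36 and -0.85 over 29 genes, with 1 higher and 4 lower in WT, none higher and 10 lower in Ring1aKO, and Zbp1 lower in both (-1.07 and -1.10). The medians of further lists in WT and Ring1aKO were 0.24 and 0.32 for 32 immediate-early genes (none past it), 0.20 and 0.08 for 18 glycolysis and metabolism genes (3 and 2 higher, none in both), -0.17 and -0.36 for 17 MHC class I genes (0 and 1 lower), and 0.11 and -0.07 for 20 T cell receptor genes (0 and 2 lower). Of 14 polycomb genes 1 was past 2-fold, Rybp in Ring1aKO (1.20). The 5 label markers other than Eomes had medians of 0.29 and -0.31, and none passed 2-fold.

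Markers of other cell types also moved with the groups. All 4 γδ T cell markers tested, Trgc2 among them (178 and 9.27 CPM in WT and 230.3 and 66.2 CPM in Ring1aKO), were more than 2-fold higher in Itgae/Itga1-only cells of both libraries, with medians of 3.62 and 1.69. Summed over the list, these markers stood at 449 and 409 CPM in Itgae/Itga1-only cells and at 29.1 and 99.2 CPM in Ly6c2/Eomes-only cells of WT and Ring1aKO. Of 4 NK and ILC1 markers 2 were higher in both libraries, and both neutrophil markers tested were lower in WT (median -2.19) and not past 2-fold in Ring1aKO. The part of these markers in the ratios of the other lists was not tested, apart from the values without members holding a Trgc, Fcer1g or Tyrobp UMI.

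The cell cycle list had genes past 2-fold in opposite directions in the libraries. In WT 7 of 22 were more than 2-fold lower in Itgae/Itga1-only cells and none higher (median -0.71), and in Ring1aKO 8 were higher and none lower (median 0.90). The medians were -0.0026 and 0.16 without members holding a Mki67 or Top2a UMI. Both of those genes are on this list, so medians closer together are no independent finding. Without members holding a Lyz2 UMI the median of WT was -0.13. The medians of the cytotoxic, transcription factor, label marker and T cell receptor lists also lay on opposite sides of 0, and no difference between the libraries was tested.

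**Figure D5:**
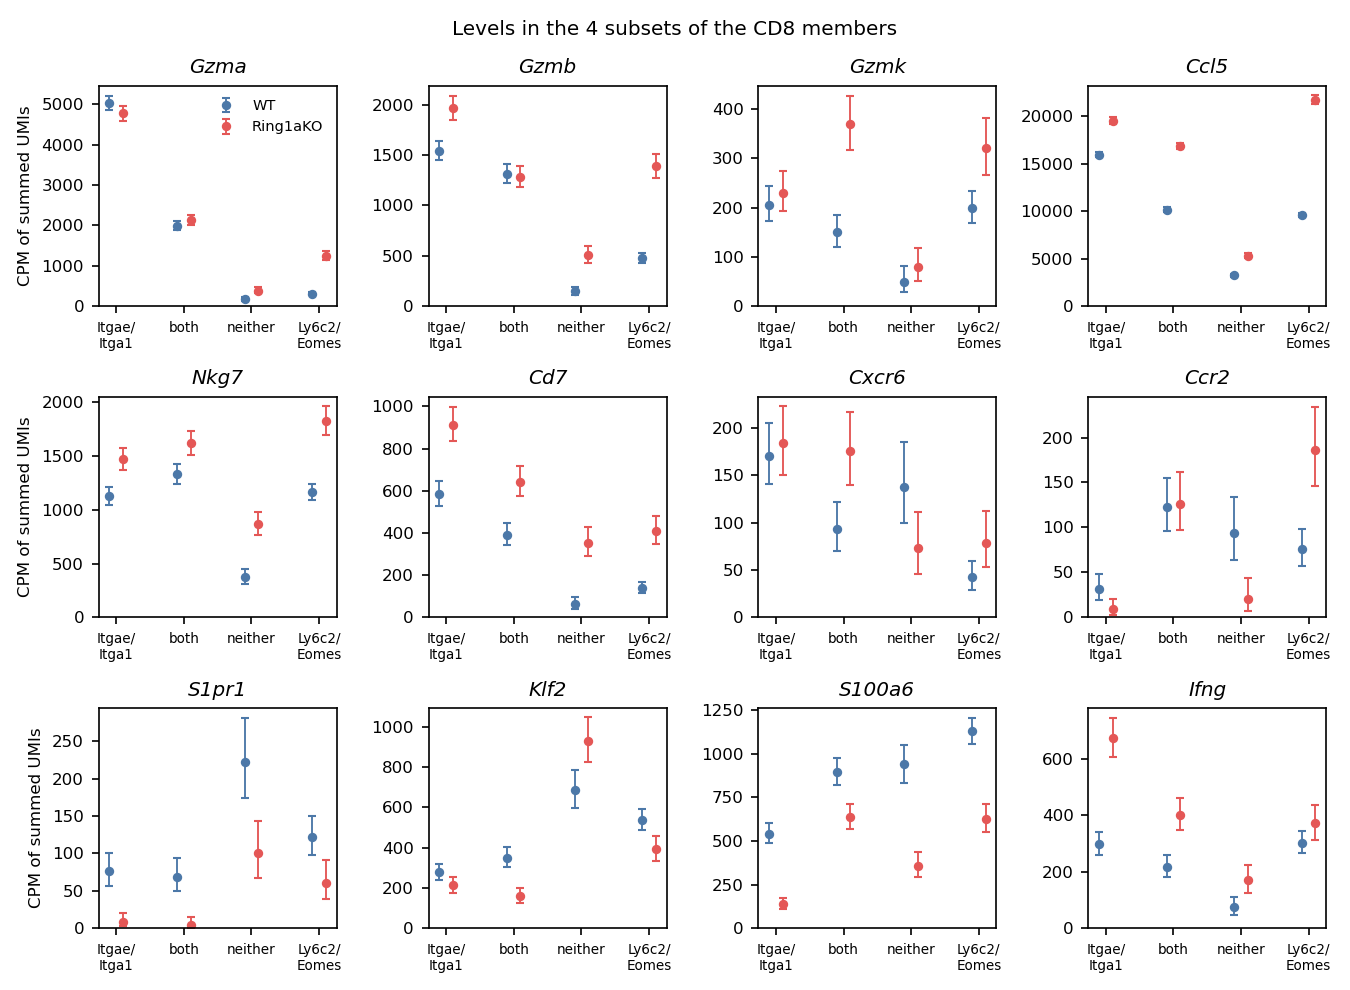
CPM of 12 genes in the 4 groups of CD8 T cells (Itgae/Itga1-only, Ly6c2/Eomes-only, both, neither) in WT and Ring1aKO, with 95% Poisson intervals, 1 library each. Gzma was highest in Itgae/Itga1-only cells of both libraries and stood at 307 and 1244 CPM in Ly6c2/Eomes-only cells of WT and Ring1aKO, and S1pr1 was lower in Ring1aKO in all 4 groups.

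The genotype difference was then read inside each of the 4 groups of members. Gzma, Gzmb and Ccl5, which were higher in Ring1aKO, differed more in Ly6c2/Eomes-only than in Itgae/Itga1-only cells, while Ifng differed less. Gzmk and Nkg7 differed most in other groups, as given below. Gzma stood at 5026 and 4773 CPM in Itgae/Itga1-only cells of WT and Ring1aKO, -0.07 (-0.15 to -0.00), which lay above 0 if the scaling shift was added, and at 307 and 1244 CPM in Ly6c2/Eomes-only cells, 2.01 (1.79 to 2.25). Gzmb stood at 1543 and 1965 CPM (0.35) and 477 and 1387 CPM (1.54). Ccl5 stood at 15992 and 19536 CPM (0.29) in the former and 9658 and 21785 CPM (1.17) in the latter, and was also higher in cells with both pairs (0.73) and with neither (0.70). The lower ratio of Gzma between the groups in Ring1aKO came with a higher level in the Ly6c2/Eomes-only cells. These cells numbered 99 and 62, and the difference of ratios between groups was not tested. In them γδ T cell markers summed to 29.1 and 99.2 CPM and neutrophil markers to 336 and 102 CPM, and the part of these was not tested.

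Cd7 was higher in Ring1aKO in all 4 groups, at 585 and 914 CPM (0.64) in Itgae/Itga1-only cells, 140.4 and 409.6 CPM (1.53) in Ly6c2/Eomes-only cells, 393 and 644 CPM (0.71) in cells with both and 62.6 and 353 CPM (2.44) in cells with neither. S1pr1 was lower in all 4, at 76.3 and 8.92 CPM (-2.88), 122 and 61.1 CPM (-0.98), 69.2 and 4.08 CPM (-3.58, interval -7.18 to -2.14) and 222 and 100 CPM (-1.13) in the same order, the third from 2 UMIs in Ring1aKO. Maf and S100a4 were lower in all 4 as well, Maf between -2.19 and -1.74 and S100a4 between -3.45 and -0.98. Nkg7 was higher in each, from 0.28 in cells with both to 1.20 in cells with neither. Gzmk was at 0.16 in Itgae/Itga1-only cells, 0.69 in Ly6c2/Eomes-only cells, 1.28 in cells with both and 0.64 in cells with neither. Ifng was at 298 and 673 CPM (1.17) in Itgae/Itga1-only and 303 and 371 CPM (0.29) in Ly6c2/Eomes-only cells.

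Several genes that were lower in Ring1aKO members stood highest in the WT cells with neither pair. In these 50 WT and 49 Ring1aKO cells Areg stood at 588 and 23.3 CPM, Tnfsf8 at 582 and 100 CPM, Maf at 398 and 117 CPM, S100a4 at 1033 and 133 CPM and Il17a at 441 and 0 CPM. Of the 4 groups these cells also held the highest Klf2 and S1pr1 and the lowest Gzma in both libraries, at 686 and 929.9, 222 and 100 and 188 and 389.96 CPM. Tnfsf8 was higher in Ring1aKO in Ly6c2/Eomes-only cells, at 11.9 and 58.5 CPM (2.14), against the direction of all members. Some markers of other cell types also stood higher in the WT cells with neither pair, where CD4 T cell markers summed to 2260 CPM in WT and 1067 in Ring1aKO, ILC2 and ILC3 markers, which include Areg, to 1171 and 157 CPM, and γδ T cell markers to 476 and 93.3 CPM. Others stood lower in WT, among them NK and ILC1 markers (229 and 607 CPM), dendritic cell markers (282 and 623), B cell markers (153 and 270) and plasma cell markers (4830 and 5906). The part of all these markers in the levels above was not tested.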

How the data were processed

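Single-cell 3′ RNA libraries of sorted colonic CD45+ cells, 1 for WT and 1 for Ring1aKO, were used as deposited. The authors counted UMIs per gene and barcode with Cell Ranger, and the deposited values are raw counts of all barcodes with no normalization. The labels name Cell Ranger 6.0.2 and mm39, and the header of the matrices names Cell Ranger 4; the paper's methods name another version and mm10, so no coordinates were taken from the files. GEO's labels gave the groups.

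The members, the division by Itgae, Itga1, Ly6c2 and Eomes and the gene lists were chosen with earlier results of these data known. UMIs were summed per class and library and expressed as CPM. Genes needed at least 50 UMIs over the sums compared, and a gene was counted past 2-fold. Intervals are exact, Poisson for CPM, Clopper-Pearson for shares and conditional binomial for ratios of genes, with an interval on the log scale for ratios of shares. With 1 library per group no test was made. Doublets were not removed beyond the genes the rule set to 0. Barcodes below 100 UMIs were taken as cell-free.

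The genes named were the 10 highest and 10 lowest ratios of Ring1aKO over WT among genes at 100 CPM or more in either library, and the 12 each way with the largest smaller ratio of both libraries between the 2 groups of members. Immunoglobulin genes, T cell receptor variable and joining genes, mitochondrial, ribosomal protein, Xist and Y-linked genes were left out. Others come from 29 gene lists or from the rule for members, and those outside these are said to be chosen after their values were seen. Of 461 listed genes 460 were in the files, 6 of them under another symbol, and Mx1 was not matched. A few listed genes are not reported here. RefSeq promoters were available for 37 of the 44 named genes.

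The computing tools were pandas 2.3.3, scipy 1.17.1 and numpy 2.4.6 under Python 3.11.15, matplotlib 3.10.9 for plots, and R 4.3.3 with edgeR 4.0.16 and DESeq2 1.42.0 for TMM and median-of-ratios scaling alone. The ratios and their intervals were tried on simulated sums drawn as Poisson counts, which is the model the intervals assume. Clustering of UMIs in few cells was not simulated, so that trial does not cover it. Of the kept barcodes 11 occurred in both libraries, none of them a member. Median depth per member was 5757 and 5723 UMIs.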

Additional observations from a re-analysis of the deposited data

Results flagged for a closer look

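Between Itgae/Itga1-only and Ly6c2/Eomes-only CD8 T cells, 11 of 5031 genes (0.219%) were past 2-fold in opposite directions in the 2 libraries. These differences were not tested, since each genotype had 1 library. Cell cycle genes were among them, lower in Itgae/Itga1-only cells of WT and higher in those of Ring1aKO. Mcm3, a helicase subunit of DNA replication, had log2 ratios of -1.03 and 2.59. Rrm2, the small subunit of ribonucleotide reductase, had -2.39 and 1.74. Stmn1, a regulator of microtubules abundant in dividing cells, had -1.05 and 1.52. The median over the cell cycle list was -0.71 in WT and 0.90 in Ring1aKO.

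Tnfsf8, which encodes the CD30 ligand, went the other way, with 2.46 in WT and -1.89 in Ring1aKO. It was found in 43 WT and 14 Ring1aKO members. The other genes included Clspn, Glrx, H2ac24, Ifitm1, Ppa1 and Tubgcp3, chosen after their values were seen.

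Barcodes that met the Cd8b1, CD3 and exclusion conditions with at least 500 UMIs, but failed the limits on UMIs, genes or mitochondrial share, numbered 5 in WT and 7 in Ring1aKO. They are not part of the values reported.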

How the results depend on the processing

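No paired analysis was possible because each genotype had 1 library, which the labels number as replicate 1 in both, so a replicate could not be left out either. The limits of these data are the pooling of 5 mice in 1 library per genotype, the choice of members by single UMIs, and the division of members by 4 genes of low level. Areg and Il17a were found in few cells, and a 3′ library does not show isoforms.

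Of the values under alternatives, 32 shares, 28 counts of genes, 227 list medians and 1156 ratios of named genes lay inside the 95% counting interval of the reported value (for list medians, the median of the members' intervals, and for counts of genes, within 1.5 times), an interval that is wide for genes of few UMIs. Outside it, 2 shares, 8 counts, 9 list medians and 108 ratios were counted as moved, and 1 list median and 4 ratios as reversed. The cell cycle median between genotypes was counted as moved, but it also turned above 0. It was 0.089 as a mean over cells and 0.19 without members holding a Mki67 or Top2a UMI. The cause was not tested for those that moved. Log2 ratios of Areg reversed to 0.59 with at least 2 Cd8b1 UMIs required and to 0.31 without members holding a Cd4 UMI, and those of Fcer1g between the 2 groups of members reversed to -0.10 in WT and -0.064 in Ring1aKO with at least 2 Cd8b1 UMIs. The same requirement gave log2 ratios of the CD8 share of -0.92 over kept cells and -0.44 over CD3+ cells. A floor of 20 UMIs, of 200 UMIs or none gave 616, 60 and 2801 genes past 2-fold between genotypes and 259, 38 and 564 past it in both libraries between the groups of members, since other genes were then tested. Without doublet-like members, which left 195 WT and 143 Ring1aKO cells, the latter was 84 of 3082 genes tested, beside 141 of 5031. The egress median between the groups in Ring1aKO was -1.63 when a positive cell needed 2 UMIs. The immediate-early median between genotypes was 0.33 with TMM and 0.33 with median-of-ratios scaling, and the cell cycle median 0.089 as a mean over cells.

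Some alternatives were added after seeing the data. Without members holding a Trgc, Fcer1g or Tyrobp UMI (140 WT and 152 Ring1aKO), 51 of 2801 genes passed 2-fold in both libraries between groups. The naive and memory median of Ring1aKO was then -0.29, and the immediate-early median between genotypes reversed to -0.0089. Without members holding a Mki67 or Top2a UMI (92 and 67), the cell cycle median was 0.19 between genotypes and -0.0026 between the groups in WT. Mki67 and Top2a are themselves on the cell cycle list. The egress median between genotypes was then -0.49. The cell cycle median between the groups in WT was -0.13 without members holding a Lyz2 UMI (72 and 16).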

Other observations

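T cell receptor variable genes were left out of the named genes and differed between the libraries. Trbv genes were found as 78 UMIs in 62 of 325 WT members (19.1%) and as 9 UMIs in 9 of 270 Ring1aKO members (3.33%). Conventional CD4 T cells showed the same direction, with a Trbv UMI in 25.9% of WT and 5.45% of Ring1aKO cells. Trav genes were found in 13.8% and 10.0% of members. The beta chain constant genes, Trbc1 and Trbc2 together, stood at 1543 and 2173 CPM, and Trac at 504 and 635 CPM, so the constant genes were not lower in Ring1aKO. Of the WT members with a Trbv UMI 16 held Trbv12-2, and of the Ring1aKO members 2. A 3′ library reads variable segments rarely, and these counts are no measure of clones.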
